A study of Mus musculus with 2 samples.

Results

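The lysosomal genes described here are 49 of the 31053 genes in the count matrices. They are 27 listed symbols for hydrolases, their inhibitors and cofactors, lysosomal membrane proteins and the regulator Tfeb. With them stand all 22 symbols that begin with Atp6v0 or Atp6v1, which encode subunits of the proton pump. Their raw counts of unique molecular identifiers (UMIs) were followed across microglia, macrophages, monocytes and rods. The members were chosen by symbol, with no measured value in the rule, though earlier results of these data were known.

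Lysosomes are the acidic compartments in which cells break down engulfed and worn-out material. Cathepsins cut proteins there, other hydrolases cleave sugar chains and lipids, cystatins block cathepsins, and heavily glycosylated membrane proteins line the compartment. A rotary pump keeps it acid: its V1 part hydrolyses ATP in the cytosol and its V0 part carries protons through the membrane. The transcription factor Tfeb is known to bind short palindromic sites in promoters of many such genes. Microglia are the resident phagocytes of the retina, and rods are its photoreceptor neurons for dim light.

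Each of the 2 libraries came from pooled retinas of C57BL/6j mice at postnatal day 17, from which cells positive for both F4/80 and CD11b were sorted and sequenced with a 3′ droplet kit. The RA library was from pups kept in room air, and the OIR library from pups with oxygen-induced retinopathy, in which exposure to high oxygen is followed by return to room air and retinal vessels grow abnormally. With 1 library per condition there was no replicate and no test between conditions. Differences between mice, litters and preparations cannot be told apart from the condition.

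The RA matrix held 1449 cells with 12810892 UMIs and the OIR matrix 1259 cells with 9835402 UMIs, and 0 barcodes were shared. After filtering, 1295 RA and 1179 OIR cells were left. Cells were placed in 5 classes by marker UMIs, and no member was a marker. Microglia held at least 5 UMIs of C1qa, C1qb and C1qc together and were divided at 1 UMI per 1000 of Malat1, a long RNA that stays in the nucleus. There were 756 RA and 444 OIR Malat1-positive microglia, 48 and 233 Malat1-negative microglia, 88 and 139 macrophages, 44 and 75 monocytes, and 296 and 223 rods. Rods were present although the sort selected myeloid cells, and held 10 rod markers at 87079.6 CPM in RA and 88648 CPM in OIR. CPM are counts per 1000000 UMIs of the class.

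Some features of the libraries moved with the condition. Malat1 stood at 19125 CPM in RA and 7277 CPM in OIR Malat1-positive microglia, and at 50052 CPM in RA and 26835 CPM in OIR rods. Ribosomal protein genes took 13.2% in RA and 7.33% in OIR of the UMIs of Malat1-positive microglia, and dividing cells were 0.397% in RA and 15.5% in OIR of them. Their part in the differences given here was not tested, except where a value with cells matched or left out stands beside the result.

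A level is the sum of the UMIs of a gene in a class, in CPM. The kit counts each molecule once at its 3′ end, so levels of different genes were set side by side without a length correction. Ratios are log2 of OIR over RA unless another pair is named, and the range in parentheses is a 95% interval that covers counting error only. A gene entered the counts when its mean level over both groups was at least 20 CPM and it had at least 20 UMIs, and it was called when its ratio was past 2-fold.

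Promoters of 4 members are shown because the results below turn on their genes: Ctsd was the member furthest above RA in OIR Malat1-positive microglia, Cst3 the one furthest below, and Atp6v0e and Atp6v0e2 encode versions of the same pump subunit that different cell classes used. Each runs 5′ to 3′ over 300 bases, from 250 bases before to 50 bases after the annotated start in RefSeq on GRCm38.p6. Capitals mark CACGTG, the core of the sites that Tfeb is known to bind, or its longer form TCACGTGA. Ctsd lies at chr7:142387778-142388077 on the minus strand, Cst3 at chr2:148875463-148875762 on the minus strand, Atp6v0e at chr17:26676146-26676445 on the plus strand and Atp6v0e2 at chr6:48537319-48537618 on the plus strand.
Ctsd: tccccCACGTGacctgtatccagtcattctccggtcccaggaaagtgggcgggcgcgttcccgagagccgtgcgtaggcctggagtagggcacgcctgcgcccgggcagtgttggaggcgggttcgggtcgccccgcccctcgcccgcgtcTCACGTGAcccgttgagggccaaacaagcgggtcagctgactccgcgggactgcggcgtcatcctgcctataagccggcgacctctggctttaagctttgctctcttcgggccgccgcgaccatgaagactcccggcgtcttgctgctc
Cst3: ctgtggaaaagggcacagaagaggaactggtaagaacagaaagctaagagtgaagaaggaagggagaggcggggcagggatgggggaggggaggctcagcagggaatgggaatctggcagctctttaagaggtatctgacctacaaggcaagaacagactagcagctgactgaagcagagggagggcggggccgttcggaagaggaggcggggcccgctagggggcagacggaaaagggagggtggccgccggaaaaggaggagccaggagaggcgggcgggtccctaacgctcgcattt
Atp6v0e: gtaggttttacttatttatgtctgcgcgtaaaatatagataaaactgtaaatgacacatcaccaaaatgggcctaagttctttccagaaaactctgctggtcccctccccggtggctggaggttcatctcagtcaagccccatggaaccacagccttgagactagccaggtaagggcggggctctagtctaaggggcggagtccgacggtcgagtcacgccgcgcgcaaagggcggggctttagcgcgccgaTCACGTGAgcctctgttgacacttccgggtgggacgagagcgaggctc
Atp6v0e2: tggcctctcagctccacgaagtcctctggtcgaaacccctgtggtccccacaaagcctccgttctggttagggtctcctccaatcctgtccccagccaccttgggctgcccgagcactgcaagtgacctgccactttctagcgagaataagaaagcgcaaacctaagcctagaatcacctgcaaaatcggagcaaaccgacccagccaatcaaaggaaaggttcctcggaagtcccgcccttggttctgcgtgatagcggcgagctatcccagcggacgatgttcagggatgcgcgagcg

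RefSeq promoters were matched for 38 of the 49 members, 46 promoters in all. Each motif searched reads the same on both strands, and CACGTG lies inside TCACGTGA, so a match of the longer form is also a match of the shorter. TCACGTGA stood in 6 member promoters, or 13.04%, and in 0.974% of all 32851 promoters of the same length. The genes were Ctsa, Ctsd, Mcoln1, Atp6v0d1, Atp6v0e and Atp6v1a. CACGTG stood in 11 member promoters, or 23.9%, and in 7.15% of all. The CLEAR consensus of 10 bases, a still longer form, stood in 0 member promoters and in 0.326% of all. In the windows shown, Ctsd held 2 matches of CACGTG, 1 of them within TCACGTGA, Atp6v0e held 1 of the longer form, and Cst3 and Atp6v0e2 held none. The matches describe letters, not binding, and the 4 windows do not stand for the other members. Of other members higher in OIR Malat1-positive microglia, Ctsz and Gusb held no CACGTG, while Ctsl and Lamp1 held it. Lgmn held it in 1 of its 2 promoters. No promoter was matched for Ctsb and Ctsh, so these were not searched.

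In Malat1-positive microglia the members together took 5.30% in RA and 5.99% in OIR of all UMIs, and 5 genes supplied 70.1% in RA and 61.4% in OIR of the members' UMIs. Cst3, which encodes the secreted cathepsin inhibitor cystatin C, led in RA at 19819 CPM (19721 to 19918). Cathepsin S (Ctss), which trims the chain that guards antigen-presenting complexes, followed at 7701 CPM (7639.5 to 7762). The aspartic protease cathepsin D (Ctsd) stood at 4324 CPM, legumain (Lgmn), an asparaginyl protease that processes cathepsins, at 3185 CPM and the cysteine protease cathepsin L (Ctsl) at 2119 CPM. The same 5 genes led in OIR, where Ctsd stood above Ctss.

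**Figure D1:**
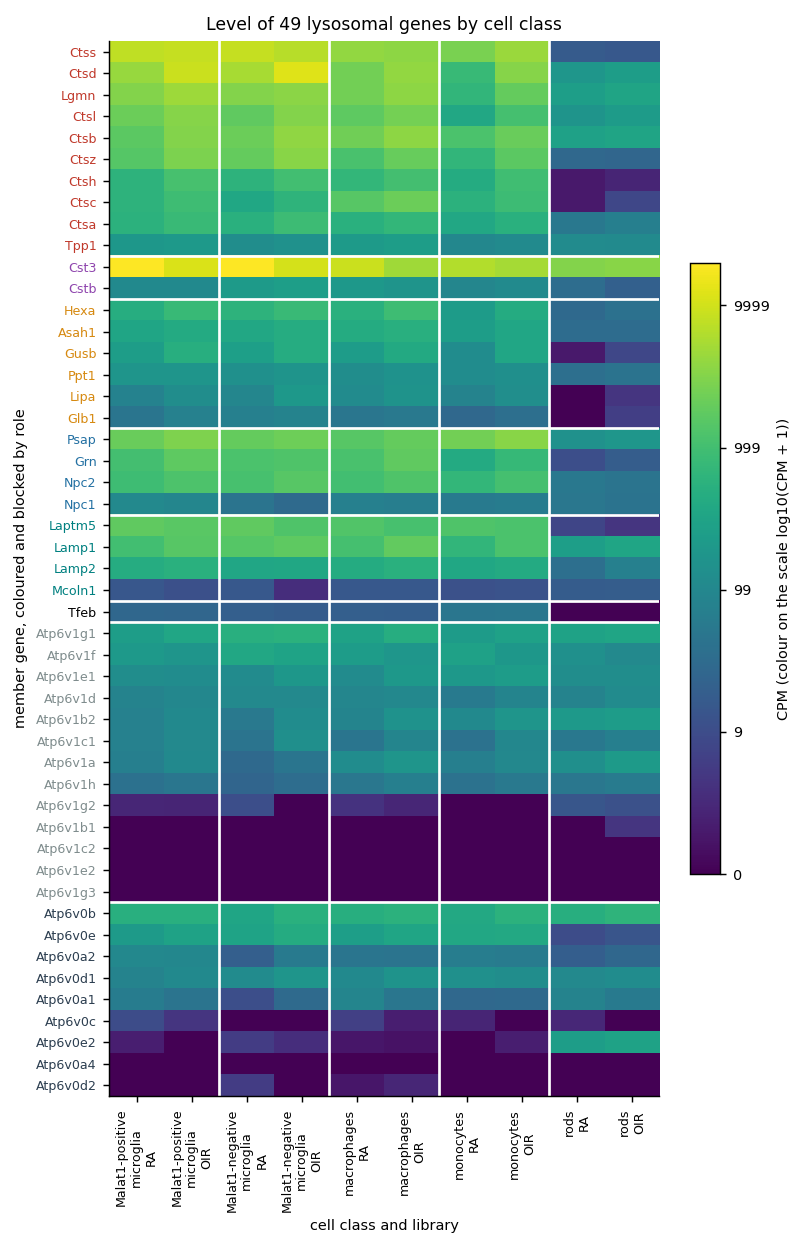
Level of each of the 49 members (rows, grouped by role) in each cell class and library (columns), as CPM on a log colour scale. Cst3 has the highest level in every column except OIR Malat1-negative microglia, where Ctsd does, and the rod columns have low levels of most enzymes but hold Atp6v0e2, which the myeloid columns nearly lack.

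The share of UMIs in members varied among cells of a class. In RA Malat1-positive microglia the 10th percentile, median and 90th percentile over cells were 3.90%, 5.15% and 6.67%, and in OIR 4.26%, 5.99% and 7.79%. Over whole classes it was 5.69% in RA and 6.05% in OIR Malat1-negative microglia, 3.65% in RA and 4.24% in OIR macrophages, 2.32% in RA and 3.43% in OIR monocytes and 0.706% in RA and 0.812% in OIR rods. This pooled share was the higher in OIR in each of the 5 classes, and lowest in rods in both libraries. The median over cells went the other way in Malat1-negative microglia, at 5.78% in RA and 5.61% in OIR. Ribosomal protein genes took 23.8% in RA and 10.3% in OIR of the UMIs of that class, and mitochondrial genes 8.45% and 4.76%. Their part in its share of members was not tested.

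In OIR Malat1-positive microglia the proteases stood higher than in RA and Cst3 lower. Of the 49 members 39 passed the filter, of which 1 was at least 2-fold higher and 0 at least 2-fold lower, where the background over 5500 genes was 5.58% and 4.05%. With so few members past 2-fold, these shares are not shown to differ from the background. Smaller ratios lay mostly on the higher side: 30 of 39 were above 0, and the counting interval lay wholly above 0 for 28 and wholly below for 5. Over all genes 54.3% were above 0, with intervals wholly above 0 for 38.1% and wholly below for 28.8%. The median ratio was 0.44, beside 0.07 over all genes.

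With all UMIs in the totals, all 10 proteases stood higher in OIR, with intervals that did not hold 0. They summed to 22410.2 CPM in RA and 34316 CPM in OIR. Ctsd stood at 4324 CPM (4278 to 4370.5) in RA and 8903 CPM (8815 to 8991) in OIR, a ratio of 1.04 (1.02 to 1.06), and was the member past 2-fold. Cathepsin B (Ctsb), an abundant cysteine protease, stood at 1623 and 3217 CPM, a ratio of 0.99 (0.95 to 1.02).

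Of the next proteases, the carboxypeptidase cathepsin Z (Ctsz) stood at 1473 CPM in RA and 2823 CPM in OIR, a ratio of 0.94 (0.90 to 0.97), and the aminopeptidase cathepsin H (Ctsh) at 604 and 1105 CPM, a ratio of 0.87 (0.81 to 0.93). Ctss differed less, at 7701 and 8336 CPM, a ratio of 0.11 (0.10 to 0.13). Ctsd thus stood below Ctss in RA and above it in OIR.

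The 2 protease inhibitors among the members did not follow the proteases, while Cst7, an inhibitor gene outside the members given below, was higher in OIR. Cst3 stood at 19819 CPM (19721 to 19918) in RA and 11529.9 CPM (11429.6 to 11631) in OIR, a ratio of -0.78 (-0.80 to -0.77), the lowest of the members that passed. Cystatin B (Cstb), an inhibitor in the cytosol, stood at 108 and 109 CPM, a ratio of 0.01 (-0.16 to 0.17). The 2 inhibitors summed to 19928 CPM in RA, near the proteases, and to 11639 CPM in OIR.

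All 6 sugar and lipid hydrolases had ratios above 0, and all but the palmitoyl thioesterase Ppt1, at 0.01 (-0.12 to 0.14), had intervals wholly above it. Gusb, which removes glucuronic acid from sugar chains, stood at 245 CPM in RA and 486 CPM in OIR, a ratio of 0.99 (0.90 to 1.08). Of the cofactor and lipid transfer genes, Psap, Grn and Npc2 were higher, and Npc1, a membrane protein that exports cholesterol, stood at 107 and 93.6 CPM, a ratio of -0.19 (-0.36 to -0.01). Among the membrane proteins, Lamp1, a main glycoprotein of the lysosomal membrane, stood at 986 and 1517 CPM, and Laptm5, found in lysosomes of blood-lineage cells, at 1762 and 1564 CPM, a ratio of -0.17 (-0.21 to -0.13).

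In Malat1-positive microglia the pump genes had a lower median ratio than the other members. The order was the same in monocytes but the reverse in Malat1-negative microglia and in macrophages, so it was no general trait of the pump genes. The 13 pump genes that passed in Malat1-positive microglia had a median ratio of 0.28, beside 0.51 for the 26 other members. All 22 pump members summed there to 1920.0 CPM in RA and 2172 CPM in OIR. Atp6v0a1, a form of the large membrane subunit of V0, stood at 61.8 and 44.0 CPM, a ratio of -0.49 (-0.74 to -0.25). Atp6v1f, a small subunit of the V1 shaft, stood at 212 and 172 CPM, a ratio of -0.30 (-0.42 to -0.17). Tfeb itself stood at 26.7 CPM (23.2 to 30.6) in RA and 25.3 CPM (20.8 to 30.4) in OIR. The channel gene Mcoln1, which lets calcium out of lysosomes, was under the filter at 13.6 and 10.0 CPM. For both genes the intervals of the libraries overlapped.

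**Figure D2:**
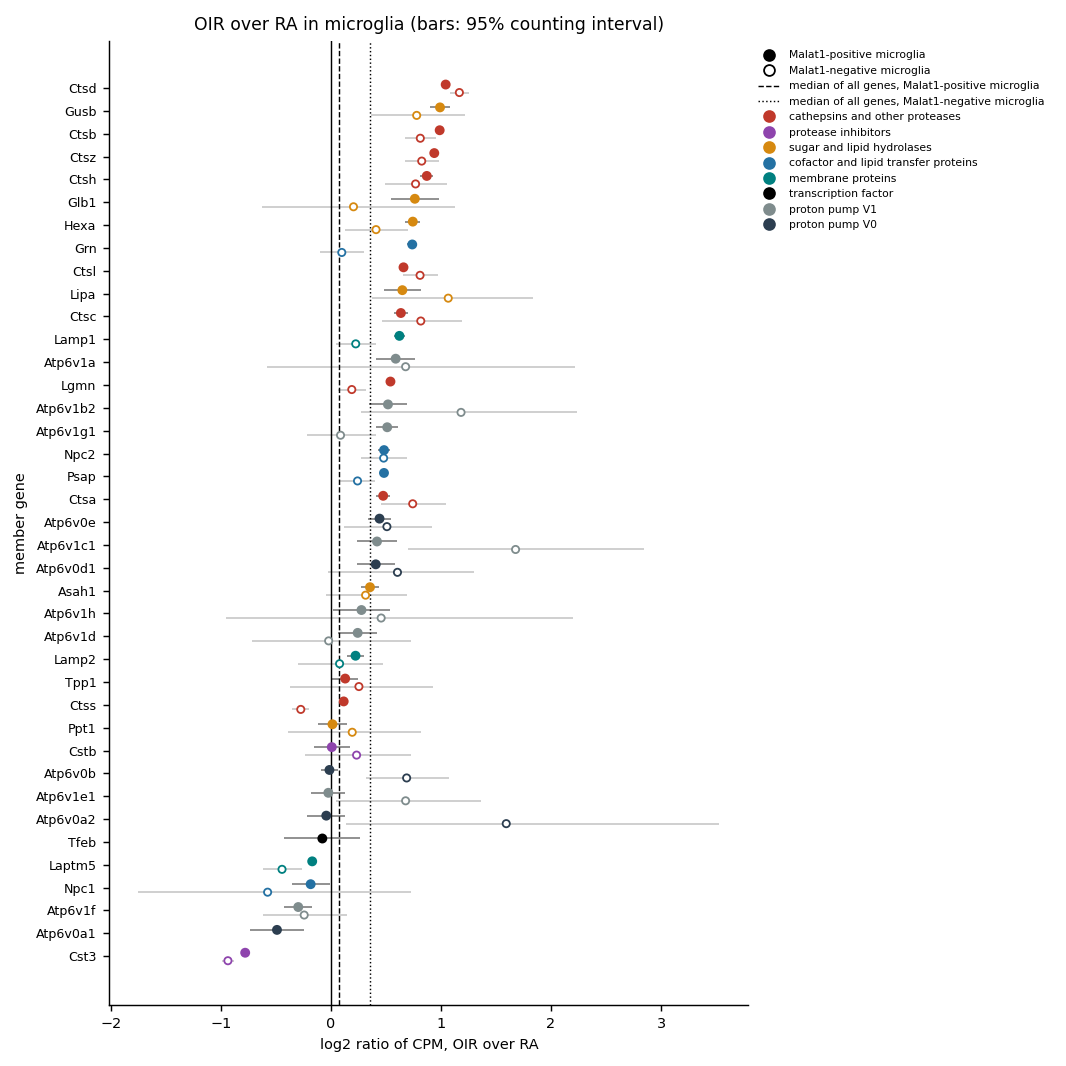
log2 ratio of CPM, OIR over RA, for members that passed in Malat1-positive microglia, with Malat1-negative microglia beside them, and 95% counting intervals; vertical lines mark the medians of all genes. Ctsd is highest and Cst3 lowest in Malat1-positive microglia, and Cst3 is also lowest in Malat1-negative microglia.

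The count past 2-fold depended on the scale. With mitochondrial, ribosomal and Malat1 UMIs left out of the totals Ctsd was at 0.93 and 0 members were past 2-fold. The shift from these reduced totals is the same for every gene, and about the size of the ratios of Ctss and Tpp1. Higher levels in OIR were thus not shown for Ctss and Tpp1 on that scale. Centred on the median of all genes, Ctsd was at 0.97. Among microglia with 8 to 16 Malat1 UMIs per 1000 in both libraries (240 RA and 155 OIR cells), 2 members were at least 2-fold higher and 0 lower, with backgrounds of 3.66% and 4.19%. There Ctsb was at 1.13 (1.07 to 1.19), Ctsd at 1.04 (1.002 to 1.07) and Cst3 at -0.75 (-0.78 to -0.73), and the median was 0.39 beside 0.18 for all genes. With dividing cells left out, Ctsd was at 1.10 and Cst3 at -0.68.

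Within the OIR library, the 69 dividing Malat1-positive microglia had 50979.6 CPM of members and the 375 others 62536 CPM. Of 39 members, 0 were at least 2-fold higher in dividing cells and 0 lower, with backgrounds of 6.84% and 1.46%. The median ratio of dividing over other cells was -0.21, beside 0.04 for all genes. Cst3 stood at 8555 against 12427 CPM and Ctss at 6526.5 against 8882 CPM, lower in the dividing cells.

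Of 62 other lysosomal genes that are no members, 53 passed in Malat1-positive microglia, 5 were at least 2-fold higher in OIR and 1 lower, and their median ratio was 0.36. Highest were Cst7, which encodes the inhibitor cystatin F, at 22.1 and 89.5 CPM, the acid phosphatase Acp5 at 15.4 and 40.3 CPM and the galactosidase Gla at 22.4 and 57.2 CPM. Lowest were Tfe3, a relative of Tfeb, at 224 and 104 CPM, Lamtor4, part of a scaffold for nutrient signalling on lysosomes, at 146 and 76.99 CPM, and the phosphatase Acp2 at 146 and 94.8 CPM.

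Malat1-negative microglia had Ctsd higher and Cst3 lower in OIR as well. Of 37 members that passed, 5 were at least 2-fold higher and 0 lower, with backgrounds of 20.2% and 7.16%. These shares too are not shown to differ from the background. The median ratio was 0.45, beside 0.36 for all genes. The RA side held 207456 UMIs, which limits the lower levels.

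Ctsd stood at 5534 CPM (5218 to 5863) in RA and 12419 CPM (12169 to 12673) in OIR, a ratio of 1.17 (1.08 to 1.26). Cst3 stood at 20472 CPM (19861 to 21097) in RA and 10681 CPM (10449.8 to 10917) in OIR, a ratio of -0.94 (-0.99 to -0.88), so that Ctsd was the member with the highest level in OIR. The acid lipase gene Lipa stood at 91.6 and 192 CPM, a ratio of 1.06 (0.37 to 1.84). The other members past 2-fold were pump subunits: Atp6v1c1, which holds V1 to V0, at 1.68 (0.70 to 2.85), Atp6v0a2, another form of the large V0 subunit, at 1.59 (0.13 to 3.53), and Atp6v1b2, a subunit of the ATP-hydrolysing ring, at 1.18 (0.27 to 2.23). Several of these calls depended on the scale. With mitochondrial, ribosomal and Malat1 UMIs left out of the totals Ctsd was at 0.84, Lipa at 0.74 and Atp6v1b2 at 0.85. Centred on the median of all genes they were at 0.81, 0.71 and 0.82, all under 2-fold. Cst3 moved past 2-fold lower on both of these scales, and was at -1.30 when centred.

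Next to Cst3 at the low end were Npc1 at -0.58 (-1.75 to 0.73), Laptm5 at -0.45 (-0.62 to -0.27), Ctss at -0.28 (-0.35 to -0.20) and Atp6v1f at -0.25 (-0.62 to 0.15). Ctss was thus slightly lower in OIR Malat1-negative and slightly higher in OIR Malat1-positive microglia. Red cell markers stood at 4.82 CPM in RA and 2095 CPM in OIR Malat1-negative microglia, where 5 OIR cells held at least 5 such UMIs, and their part in these ratios was not tested. Of the other lysosomal genes 45 passed, 7 higher and 4 lower, from Galns, a sulfatase, at 2.99 (0.40 to 8.34) to Lamtor4 at -1.27 (-1.79 to -0.74).

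Within each library the Malat1-negative and Malat1-positive microglia had similar totals of members, as shares of all UMIs, but differed in single genes. Ribosomal protein genes took 23.8% against 13.2% of these UMIs in RA and 10.3% against 7.33% in OIR. Mitochondrial genes took 8.45% against 4.29% in RA and 4.76% against 4.91% in OIR. Their part in the totals of members was not tested. In RA 2 of 39 members were at least 2-fold higher in Malat1-negative microglia and 4 lower, with backgrounds of 8.88% and 31.3%. In OIR 1 was higher and 2 lower, with backgrounds of 3.05% and 22%. The median ratio of members was -0.00 in RA and 0.04 in OIR, beside -0.32 and -0.09 for all genes. Of the 39 members, 15 were higher in both libraries, 15 lower in both and 9 opposite.

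The highest members held short and long genes. Cstb stood at 222 against 108 CPM in RA, a ratio of 1.03 (0.57 to 1.46), and at 260.3 against 109 CPM in OIR, a ratio of 1.26 with a lower bound of 1.01. Atp6v1g1, a subunit of the stalks that hold V1 in place, had ratios of 1.09 (0.80 to 1.37) in RA and 0.67 (0.51 to 0.83) in OIR, and Atp6v1f of 0.81 (0.46 to 1.14) and 0.86 (0.64 to 1.07). Cstb, Atp6v1g1 and Atp6v1f span 1953, 5937 and 2727 bases of the genome. Next in RA were the beta-galactosidase Glb1 at 0.67 (-0.19 to 1.41) and Lamp1 at 0.59 (0.42 to 0.75), and in OIR Atp6v0d1, which joins V0 to the shaft, at 0.66 (0.38 to 0.94) and Lipa at 0.60 (0.33 to 0.87). These genes span 73302, 16178, 41604 and 35159 bases in that order.

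The 5 lowest members of each library spanned 30541 to 95404 bases, a range that also holds Glb1, Atp6v0d1 and Lipa of the higher end. Npc1, of 46813 bases, stood at 43.4 against 107 CPM in RA, a ratio of -1.30 (-2.43 to -0.36), and at 29.1 against 93.6 CPM in OIR, a ratio of -1.69 (-2.38 to -1.07). Atp6v1a, the catalytic V1 subunit, of 54301 bases, had ratios of -1.32 (-2.77 to -0.19) and -1.23 (-1.77 to -0.73). Atp6v0a1 and Atp6v0a2 were at -2.68 (-5.73 to -0.82) and -2.36 (-4.24 to -0.996) in RA, from 2 and 4 UMIs in Malat1-negative microglia, and at -0.60 (-1.30 to 0.04) and -0.72 (-1.20 to -0.27) in OIR. The fifth from the low end was Atp6v1c1 in RA, at -0.83 (-1.97 to 0.10), and cathepsin C (Ctsc), which activates serine proteases, in OIR, at -0.58 (-0.72 to -0.44). Atp6v0a1, Atp6v0a2, Atp6v1c1 and Ctsc span 54298, 95404, 30541 and 37838 bases. Some short genes were lower too in RA: Atp6v0b, of 3004 bases, stood at 337 against 515 CPM, and Tpp1, a tripeptidyl peptidase gene of 7472 bases, at 125 against 188 CPM. In OIR Tpp1 was again lower, at 149 against 205 CPM, but Atp6v0b was not, at 543 against 510 CPM.

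Across the 39 members the rank correlation of gene span with this ratio was -0.43 in RA and -0.46 in OIR, beside -0.40 over 4707 genes and -0.45 over 5065 genes. It is a description across genes, which share the cells and depth of a library and are not independent. The other lysosomal genes highest in Malat1-negative microglia were Cst7, Lamtor2 and Lamtor1 in both libraries, with Cst7 at 1.80 in RA and 1.35 in OIR. The lowest was Tfe3 in RA, at -3.95 (-6.23 to -2.40), and Acp5 in OIR, at -3.93 (-6.99 to -2.06).

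**Figure D3:**
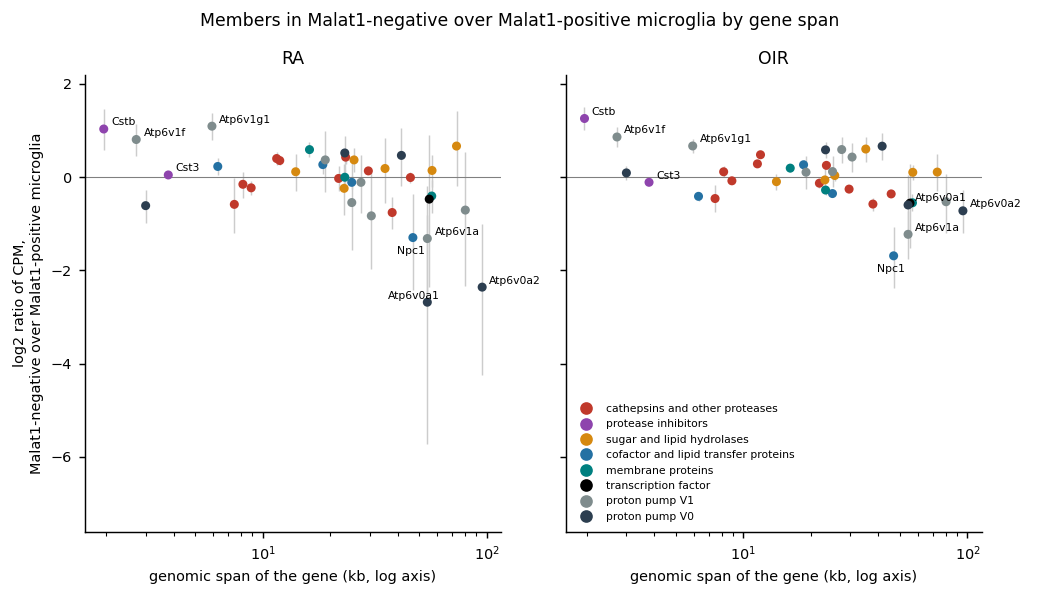
log2 ratio of CPM, Malat1-negative over Malat1-positive microglia, against gene span (log axis), for the 39 members that passed in RA and in OIR, with 95% counting intervals. Cstb, Atp6v1f and Atp6v1g1 lie above 0 among the short genes, Npc1, Atp6v1a, Atp6v0a1 and Atp6v0a2 lie below 0 among the long ones, and Glb1 is a long gene above 0.

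Within OIR Malat1-negative microglia the level of members went with that of homeostatic genes, 9 microglial markers other than C1q such as P2ry12. The 85 cells with under 4 UMIs of these per 1000 had 45612 CPM of members, and the 148 others 68357 CPM. Of 38 members, 2 were at least 2-fold higher in the former and 7 lower, with backgrounds of 3.38% and 11.1%.

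Cst3 stood at 5038 against 13653 CPM, Ctss at 3881 against 8609.9 CPM and Lgmn at 1988 against 4460.3 CPM, each lower in the cells poor in homeostatic genes. Ctsd was near level, at 11918 against 12683 CPM, and Cstb was higher, at 402 against 186 CPM, a ratio of 1.12 (0.70 to 1.54). The limit divides a continuous range: 24 of the 85 and 25 of the 148 cells lay within 1 UMI per 1000 of it.

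Macrophages, which held 11 markers such as Mrc1 and Cd163 at 7705 CPM in RA and 7941 CPM in OIR, had more Ctsc and less Cst3, Ctss and Ctsd than Malat1-positive microglia. They also had to hold at least 5 C1q UMIs. Their homeostatic genes stood at 4983 CPM in RA and 4091 CPM in OIR, against 10876.5 and 9647 CPM in Malat1-positive microglia. The class thus also carried microglial transcripts, and whether it holds microglia or mixed cells was not tested. In RA 1 of 39 members was at least 2-fold higher in macrophages and 2 lower, with backgrounds of 6.21% and 3.87%. In OIR 1 was higher and 4 lower, with backgrounds of 5.6% and 4%. Ctsc stood at 1506 against 603 CPM in RA, a ratio of 1.32 (1.24 to 1.40), and at 2138 against 937 CPM in OIR, a ratio of 1.19 (1.12 to 1.26).

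On the lower side, Cst3 had ratios of macrophages to microglia of -1.13 (-1.16 to -1.10) in RA and -1.22 (-1.26 to -1.19) in OIR. Those of Ctss were -0.95 (-0.99 to -0.91) and -1.16 (-1.20 to -1.12), of Ctsd -0.81 (-0.86 to -0.76) and -1.14 (-1.18 to -1.10), and of Atp6v0a2 -1.09 (-1.51 to -0.71) and -1.14 (-1.53 to -0.77). Next came Atp6v1c1 in RA, at -0.74, and Psap, the precursor of cofactors of lipid hydrolases, in OIR, at -0.58. On the higher side after Ctsc were Cstb, Atp6v1a, Lipa and Ctsb in RA, from 0.86 to 0.53, and Atp6v1e1, Atp6v1a, Cstb and Atp6v1h in OIR, from 0.69 to 0.57.

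Between the libraries, 0 of 38 members that passed in macrophages were at least 2-fold higher and 0 lower in OIR, with backgrounds of 9.01% and 5.29%. The median ratio was 0.42, beside 0.17 for all genes. Highest were Atp6v1c1 at 46.3 and 89.5 CPM, a ratio of 0.95 (0.50 to 1.42), and Atp6v1b2 at 87.0 and 156 CPM, a ratio of 0.85 (0.52 to 1.18). Gusb followed at 0.82 (0.62 to 1.02), Lamp1 at 0.81 (0.72 to 0.90) and Hexa, which trims gangliosides, at 0.78 (0.65 to 0.91).

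Lowest in OIR macrophages were Cst3 at 9071 and 4942 CPM, a ratio of -0.88 (-0.92 to -0.83), and Atp6v0a1 at 88.6 and 48.6 CPM, a ratio of -0.87 (-1.31 to -0.44). Atp6v1f, Laptm5 and Cstb followed at -0.39 (-0.63 to -0.15), -0.29 (-0.39 to -0.20) and -0.27 (-0.52 to -0.01). Dividing cells were 10.2% in RA and 28.8% in OIR of macrophages. Among Malat1-positive macrophages alone, 0 of 38 members were at least 2-fold higher and 0 lower in OIR, with backgrounds of 9.01% and 5.2%, and the median was 0.44. Of the other lysosomal genes 51 passed, 4 higher and 0 lower, from Gla at 1.23 to Lamtor4 at -0.96.

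Monocytes, marked by genes such as Ccr2 and Ly6c2, had the lowest protease level of the myeloid classes in both libraries, at 7889.7 CPM in RA and 16976 CPM in OIR. In RA 0 of 39 members were at least 2-fold higher than in Malat1-positive microglia and 9 lower, with backgrounds of 16.3% and 11.5%. In OIR 0 were higher and 6 lower, with backgrounds of 11.1% and 6.42%.

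The ratio to microglia was lowest for Ctsl, at -2.51 (-2.71 to -2.31) in RA and -1.62 (-1.72 to -1.52) in OIR. Ctsd was at -2.48 (-2.62 to -2.34) and -1.40 (-1.46 to -1.35), and Lgmn at -2.25 (-2.40 to -2.10) and -1.28 (-1.36 to -1.20). Also at the low end were Cst3 at -1.64 and -1.14, Ctss in RA at -1.52 and Grn, which encodes progranulin, in OIR at -1.18.

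Tfeb and some pump subunits were at the high end. Tfeb stood at 47.0 CPM (30.7 to 68.9) in RA and 49.01 CPM (34.7 to 67.3) in OIR monocytes, ratios to microglia of 0.81 (0.17 to 1.41) and 0.95 (0.38 to 1.498). Atp6v1e1, a stalk subunit, was at 0.64 (0.34 to 0.93) and 0.97 (0.72 to 1.21), Atp6v0e, a small membrane subunit, at 0.77 and 0.39, and Atp6v1b2 at 0.49 and 0.66. Atp6v0d1 in RA, at 0.79, and Psap in OIR, at 0.22, completed the 5 highest. The 22 pump members summed to 2030.3 CPM in RA and 2417 CPM in OIR monocytes.

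Between the libraries, several proteases were higher in OIR monocytes. Of 39 members that passed, 7 were at least 2-fold higher and 0 lower, with backgrounds of 7.54% and 5.98%, and the median was 0.50 beside 0.13 for all genes. Ctsd stood at 774 CPM (702 to 851) in RA and 3363 CPM (3236 to 3495) in OIR, a ratio of 2.12 (1.97 to 2.27). Ctsl was at 1.55 (1.33 to 1.78), Lgmn at 1.51 (1.35 to 1.68), Gusb at 1.46 (1.07 to 1.86) and Ctsz at 1.28 (1.12 to 1.46), and the others past 2-fold were Atp6v1c1 and Ctsh.

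At the low end were Atp6v1f at 284 and 189.6 CPM, a ratio of -0.58 (-0.92 to -0.25), and Cst3 at 6342 and 5223 CPM, a ratio of -0.28 (-0.35 to -0.21). The intervals of the next 3, Atp6v0d1, Laptm5 and Atp6v0a2, held 0. Of the other lysosomal genes 51 passed, 7 higher and 1 lower, with the tetraspanin Cd63 highest at 70.5 and 451 CPM and the sorting receptor Sort1 lowest at -1.07.

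Other markers moved with this result. C1q stood at 2433 CPM in RA and 8319.5 CPM in OIR monocytes, 11 of 44 RA and 36 of 75 OIR monocytes held at least 5 C1q UMIs, homeostatic genes stood at 2095 CPM in RA and 3072 CPM in OIR, and 3 neutrophil markers at 4037 CPM in RA and 316 CPM in OIR. Among monocytes with under 5 C1q UMIs, 6 of 37 members were at least 2-fold higher in OIR and 0 lower, with backgrounds of 9.55% and 7.91%, and Ctsd stood at 134 and 396 CPM, a ratio of 1.57 (1.05 to 2.11). Among those with at least 5, 3 were higher and 1 lower, with backgrounds of 10.2% and 9.08%, and Ctsd stood at 1772 and 4819.9 CPM, a ratio of 1.44 (1.29 to 1.60).

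Ctsl and Lgmn were at 1.003 (0.27 to 1.76) and 2.13 (1.64 to 2.65) in the former cells, and at 0.90 (0.67 to 1.14) and 0.77 (0.59 to 0.95), both under 2-fold, in the latter. The calls also depended on the filters on cells. With no filter on the number of genes per cell Ctsl was at 0.54 and Lgmn at 0.67, both under 2-fold, and Ctsd at 1.41, and 3 members were at least 2-fold apart.

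Among monocytes with 0 neutrophil UMIs the ratio of Ctsd was 2.06 between the libraries. Inside the OIR monocytes, those with at least 5 C1q UMIs had Ctsd at 4819.9 against 396 CPM in the others, a ratio of 3.61 (3.32 to 3.91). Of 39 members 10 were at least 2-fold higher in them and 1, Tfeb, lower, with backgrounds of 11.3% and 7.02%. These cells also had more UMIs, with medians of 12605 and 5314 per cell, and the part of depth was not tested.

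Rods had low levels of most enzymes, while pump subunits differed from microglia in both directions. In RA 2 of 39 members were at least 2-fold higher in rods than in Malat1-positive microglia and 26 lower, with backgrounds of 35.2% and 25.1%. In OIR 3 were higher and 26 lower, with backgrounds of 34.9% and 25.6%. Of the 25 members outside the pump that passed, 24 were at least 2-fold lower in each library. The 22 pump members summed to 2074 CPM in RA and 2432 CPM in OIR rods, against 1920.0 and 2172 CPM in microglia. Tcirg1, Atp6ap1 and Atp6ap2, pump genes outside the members, were not in the sums. Without Atp6v0e2, a subunit gene described below, the sums were 1822 and 2134 CPM in rods, against 1919 and 2172 CPM, so the higher sum of rods rested on that gene.

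Free RNA in the droplets can give rods myeloid transcripts, and microglial markers give a rough measure of it. Rods had to hold under 5 C1q UMIs, and C1qa, C1qb and C1qc are among the 12 markers, so the rule itself lowers this measure. The 9 homeostatic markers, which the rule did not use, stood at 47.8 CPM in RA and 83.8 CPM in OIR rods. In Malat1-positive microglia they stood at 10876.5 and 9647 CPM. The 12 markers stood in rods at 0.339% and 0.382% of their level in RA and OIR Malat1-positive microglia. The lowest ratios of rods to microglia were near that level: Ctss stood at 0.207% and 0.171%, Ctsh at 0.165% and 0.161% and Laptm5 at 0.396% and 0.228% of the microglial level. Whether these counts came from free RNA was not tested. Ctsc and Gusb in RA, and Ctsc and Ctsz in OIR, completed the 5 lowest. Of the 49 members, 35 in RA and 36 in OIR stood above the share of the 12 markers, 34 of them in both libraries. These counts rest on a share that the C1q limit lowered. In OIR the lower bounds of Ctsz and Grn, 0.483% and 0.493%, lay just above the upper bound of the markers, 0.478%. Tfeb had 0 UMIs in rods of either library.

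Cst3 was the leading member of rods, at 3169.6 CPM (3060.4 to 3282) in RA and 3456 CPM (3304 to 3613) in OIR, or 15.99% and 30.0% of the microglial level. Atp6v0b, a proton-carrying subunit of the V0 ring, stood at 501 and 628 CPM and Atp6v1g1 at 296 and 341 CPM. Ctsb stood at 292 and 317 CPM, Lgmn at 259 and 325 CPM and Lamp1 at 255 and 342 CPM. Free RNA from cells other than microglia was not measured this way, and its part in these levels was not tested.

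The small V0 subunit e was encoded by different genes in rods and myeloid cells. Atp6v0e2 stood at 251 CPM (221 to 284) in RA and 298 CPM (254 to 347) in OIR rods, and had 10 UMIs in RA and 0 in OIR Malat1-positive microglia. Rods were thus higher by a log2 ratio of 7.62 (6.72 to 8.70) in RA. In OIR they were 436-fold higher with the 0 of microglia taken at 3 UMIs over the class. The lower bound of the counting interval there was 8.45 on the log2 scale. Atp6v0e was the reverse, at 8.97 and 12.5 CPM in rods and 219 and 297 CPM in Malat1-positive microglia, ratios of -4.61 and -4.57.

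An Atp6v0e2 UMI was found in 50.0% of RA and 48.0% of OIR rods, at median depths of 1756.5 and 1253 UMIs, against 1.19% of RA Malat1-positive microglia, at 10340.5 UMIs. With each cell thinned to 1000 UMIs the shares were 24.7% and 34.5% of rods and 0.228% of RA Malat1-positive microglia. Thinning left out 40 RA and 74 OIR rods, and 3 RA Malat1-positive microglia.

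**Figure D4:**
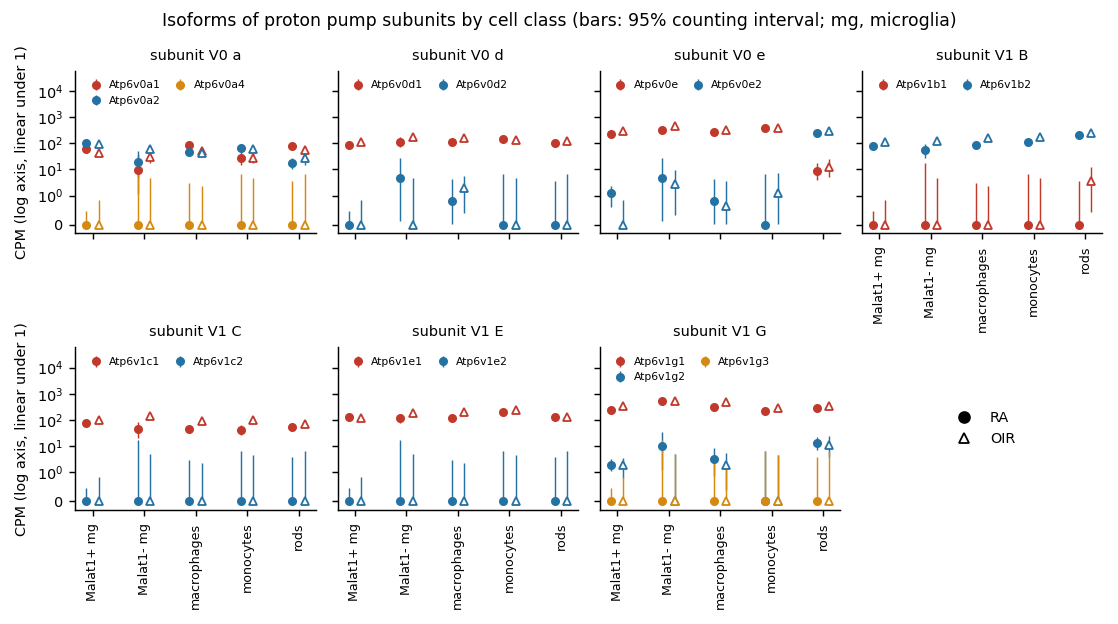
Level in CPM of the pump subunits that have more than 1 member gene, by cell class and library, with 95% counting intervals. For subunit e, Atp6v0e leads in the 4 myeloid classes and Atp6v0e2 in rods. Of the member genes for subunit a, Atp6v0a1 and Atp6v0a2 are expressed side by side, and Tcirg1 is not drawn.

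For the subunits B, C, E and G of V1 and d of V0, the same gene led in every class. Atp6v1b2 stood at 53.0 to 239 CPM over the 10 combinations of class and library, while Atp6v1b1 had 2 UMIs in OIR rods and 0 elsewhere. Atp6v0d1 stood at 83.7 to 176 CPM and Atp6v0d2 at 0 to 4.82 CPM. Atp6v1c1 stood at 41.6 to 139 CPM, Atp6v1e1 at 116 to 239.9 CPM and Atp6v1g1 at 228 to 552 CPM, and their partners Atp6v1c2, Atp6v1e2 and Atp6v1g3, like Atp6v0a4, had 0 UMIs in every class. Atp6v1g2, known from neurons, stood at 12.95 and 10.7 CPM in rods and at 0 to 9.64 CPM elsewhere.

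For the member genes of the large V0 subunit a, Atp6v0a2 was above Atp6v0a1 in both kinds of microglia and in monocytes. It was below Atp6v0a1 in macrophages and rods, in both libraries. In RA Malat1-negative microglia this order rested on 4 against 2 UMIs. In OIR macrophages the levels were near each other, at 43.5 CPM for Atp6v0a2 and 48.6 CPM for Atp6v0a1. In Malat1-positive microglia Atp6v0a2 stood at 98.9 and 95.9 CPM and Atp6v0a1 at 61.8 and 44.0 CPM, and in rods they stood at 17.9 and 26.7 CPM and 81.7 and 55.3 CPM. A further subunit a gene, Tcirg1, is among the other lysosomal genes and not a member. It stood above Atp6v0a1 and Atp6v0a2 in macrophages, at 109 CPM in RA and 102 CPM in OIR. The same held in monocytes, at 97.6 and 135 CPM, and in Malat1-negative microglia, at 57.8 and 84.6 CPM. In rods Tcirg1 had 0 UMIs. Of subunits with a higher level in rods, Atp6v1b2 had ratios to microglia of 1.40 (1.17 to 1.63) in RA and 1.11 (0.82 to 1.39) in OIR, and Atp6v1a of 0.92 (0.64 to 1.19) and 1.01 (0.71 to 1.30). Atp6v0a1 and Atp6v0d1 in RA, and Atp6v1h and Atp6v0a1 in OIR, followed at 0.32 to 0.40, and the intervals of both in OIR held 0. Lower in rods in both libraries, with intervals wholly below 0, were Atp6v0a2 at -2.46 (-3.23 to -1.79) and -1.84 (-2.69 to -1.10), Atp6v1c1 at -0.57 (-1.01 to -0.16) and -0.53 (-1.03 to -0.06), and Atp6v1f at -0.54 (-0.80 to -0.30) and -0.74 (-1.15 to -0.35). Atp6v0c, the main subunit of the proton-carrying ring, had only 0 to 9.16 CPM, a level that is uncertain. RefSeq names 2 pseudogenes for it, neither of which is a symbol in the count matrices, and their part in this level was not tested.

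Between the libraries, 0 of 30 members that passed in rods were at least 2-fold higher and 0 lower in OIR, with backgrounds of 4.02% and 4.9%, and the median was 0.24 beside 0.11 for all genes. Lamp2, which takes part in autophagy, stood at 36.9 and 73.1 CPM, a ratio of 0.99 (0.31 to 1.67). Atp6v1a was at 0.67 (0.31 to 1.03), the shaft subunit Atp6v1d at 0.50 (0.01 to 0.99), Ctsd at 0.48 (0.15 to 0.81) and Atp6v1f at -0.49 (-0.96 to -0.04). Of the other members at either end, Atp6v0a2, Cstb, Atp6v0a1, Npc1 and Npc2, the intervals held 0. Cst3 was at 0.12 (0.04 to 0.21) and so was not lower in OIR rods. In Malat1-positive rods alone 0 of 30 members were at least 2-fold higher and 0 lower, with backgrounds of 5.51% and 5.49%, and in Malat1-negative rods 1 of 24 was higher and 0 lower, with backgrounds of 6.2% and 8.43%. Of the other lysosomal genes 32 passed, 2 higher and 0 lower, with Cd63 highest at 1.55.

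Malat1-negative rods had more of the members than Malat1-positive rods, at 8623 against 6414 CPM in RA and 9654 against 7109 CPM in OIR. In RA 1 of 29 members was at least 2-fold higher and 0 lower, with backgrounds of 2.66% and 27.9%, and in OIR 0 of 26 were higher and 0 lower, with backgrounds of 3.37% and 27%. The median ratio was 0.27 in RA and 0.37 in OIR, beside -0.39 and -0.28 for all genes. Atp6v0e2 was at 0.93 (0.56 to 1.30) and 0.98 (0.52 to 1.44), and Atp6v1a at -0.82 (-1.497 to -0.19) and -0.70 (-1.31 to -0.12).

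Side by side, the OIR over RA ratios of the 4 myeloid classes mostly lay on the same side of 0. Of 37 members that passed in all 4, 26 were above 0 in each and 3, Cst3, Atp6v1f and Laptm5, were below 0 in each, or 70.3% and 8.11%. Of the 3643 genes of any kind that passed in all 4, 42.0% were above 0 in each and 13.5% below 0 in each. The 26 held every protease except Ctss, all 6 sugar and lipid hydrolases, Psap, Grn, Npc2, Lamp1, Lamp2 and 6 pump subunits. Of 28 members that passed in all 5 classes, 16 were above 0 in each and 1, Atp6v1f, below 0 in each, where the shares of 2665 genes were 36.7% and 12.9%. The classes came from the same pair of libraries and are not replicates of the condition, and the difference from all genes was not tested, so these counts are not shown to be particular to the members.

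**Figure D5:**
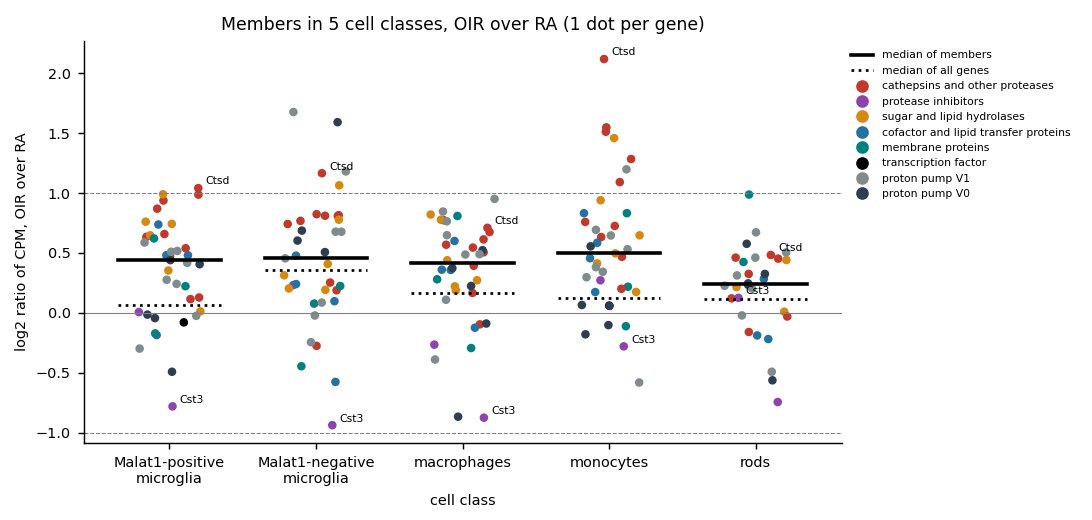
log2 ratio of CPM, OIR over RA, of each member that passed in the 5 cell classes, with the median of the members and of all genes in each class. The medians of members lie between 0.24 in rods and 0.50 in monocytes, above the median of all genes in each class, and Cst3 lies below 0 in the 4 myeloid classes.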

How the data were processed

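Cells positive for F4/80 and CD11b from pooled mouse retinas gave 1 RA and 1 OIR library. The authors deposited a filtered matrix of raw UMI counts per gene and cell for each, made with Cell Ranger 3.1.0 per the file headers. The submitters' processing notes also name Seurat 4.0 and mm10. From these counts, cells over 20% mitochondrial UMIs and the 2% of cells with the most genes were left out in each library. No doublet caller was run, and 11 RA and 24 OIR cells with at least 5 C1q UMIs also held at least 5 rod markers.

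Macrophages held at least 5 of 11 macrophage markers, monocytes at least 4 of 8 monocyte markers and rods at least 5 of 10 rod markers. These limits were set after the marker distributions were seen. Macrophages also had to hold at least 5 C1q UMIs, and rods under 5. 4 RA and 22 OIR cells held 4 macrophage markers, and 2 and 14 held 3 monocyte markers. 63 RA and 65 OIR cells were in no class.

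Levels have exact Poisson intervals and ratios exact conditional binomial intervals at 95%. UMI counts were summed per class and library. The intervals cover counting error only. Named with values are the 5 highest and 5 lowest ratios per comparison, the 5 highest levels per class, Tfeb, Mcoln1 and pump isoforms, and for the other 62 lysosomal genes the highest and lowest. Other genes and subsets of cells given were chosen after values were seen. The members and lists were chosen with earlier results of these data known. Python 3.11.15, numpy 2.4.6, scipy 1.17.1, pandas 2.3.3 and matplotlib 3.10.9 were used.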

Additional observations from a re-analysis of the deposited data

How the results depend on the processing

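No paired analysis was possible because each condition had 1 library. With 1 library each, none could be left out. For the 5 highest and 5 lowest members of each comparison, 902 of 912 values under the alternatives kept their sign. These members were picked for their ratios, so the count does not speak for the other members. The cause of the differences given here was not tested. In Malat1-positive microglia the members past 2-fold were 2 with a mitochondrial limit of 10%, with Malat1-negative set at 0 UMIs, with Malat1 under 0.5 and from 5 per 1000, with dividing cells left out, without the level filter and at 8 to 16 Malat1 UMIs per 1000, and 0 with mitochondrial, ribosomal and Malat1 UMIs out of the totals, where the median was 0.33, and when centred on all genes. In OIR over RA of Malat1-negative microglia they were 8 with the limit of 10% and with cells holding rod or cone UMIs left out. There they were 3 centred, with Cst3 among them on the lower side, and 2 from 100 CPM. In Malat1-negative over Malat1-positive microglia they were 2 in RA and 1 in OIR from 100 CPM, and the RA median was 0.25 with the reduced totals and 0.32 centred. In macrophages they were 1 with rod or cone cells left out, dividing cells left out or at least 8 markers, and 2 centred, where the median was 0.25, and without the level filter. In monocytes they were 3 without the filter on the number of genes and 11 with rod or cone cells left out. In rods they were 1 with the limit of 10%, from 2000 UMIs and in Malat1-negative rods, and 2 without the level filter. The settings at 8 to 16 Malat1 UMIs, at least 8 markers, macrophages and rods divided by Malat1, monocytes by C1q or neutrophil UMIs, and rod or cone markers without Gngt2 were chosen after seeing the data. Depth limits the lower levels of RA Malat1-negative microglia and of rods.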
